A study of Mus musculus with 50 samples.

Results

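The genes of the vascular endothelial growth factor (VEGF) ligands and their receptors were followed in the gastrocnemius, a hind-limb muscle, of 50 male C57BL/6JRj mice. The 10 genes were chosen by symbol from the 23880 genes of the deposited tables: the ligands Vegfa, Vegfb, Vegfc, Vegfd and Pgf, the receptor tyrosine kinases Flt1, Kdr and Flt4, and the co-receptors Nrp1 and Nrp2. All 10 passed the filter on low counts that 12586 genes passed. Each mouse gave its own library, and the ages 8, 18, 22 and 24 months had 8 mice each, the ages 26 and 28 months 9 each. No mouse carried an engineered allele or received a drug. C57BL/6JRj is an inbred strain, so the mice share 1 genetic background and 1 sex, and mice with overt illness or tumours had been left out. The mice of 8 and 18 months ate the purified diet AIN-93M for at least 2 months before the end point. The older mice ate it from 18 to 19 months of age on, so age and diet history cannot be told apart between 8 and 28 months. The comparison within 1 diet regime is 28 against 22 months, where the older mice had eaten the diet for longer. Age and time on the diet cannot be told apart there either. Total counts per mouse ranged from 13607229 to 21267375 (median 16521368). Replicate 2 of 28 months stood apart from its age in Pgf and Kdr, and results of single members that rest on it are given with and without it.

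VEGF ligands are secreted growth factors that bind tyrosine kinases on endothelial cells. VEGF-A, encoded by Vegfa, signals mainly through VEGFR2 (encoded by Kdr), which drives endothelial growth and survival, whereas VEGFR1 (Flt1) binds VEGF-A tightly, signals weakly and also exists as a soluble form that traps ligand. VEGF-B and placental growth factor (Pgf) bind VEGFR1, VEGF-C and VEGF-D bind VEGFR3 (Flt4), the receptor of lymphatic endothelium, and the neuropilins are co-receptors shared with class 3 semaphorins. In skeletal muscle, fibres are a main source of VEGF-A, which maintains the capillary bed around them. Hypoxia-inducible factors and the coactivator PGC-1α with the receptor ERRα are known inducers of Vegfa.

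In GENCODE vM21 (GRCm38), Vegfd lies on chromosome X at 164373378 to 164402650 (plus strand), Vegfa on chromosome 17 at 46016993 to 46032369 (minus strand), Vegfb on chromosome 19 at 6982473 to 6987651 (minus strand), Vegfc on chromosome 8 at 54077606 to 54187096 (plus strand) and Pgf on chromosome 12 at 85166635 to 85177790 (minus strand). Flt1 (147561604 to 147726011) and Kdr (75932827 to 75978458) are both on the minus strand of chromosome 5. Flt4 is on chromosome 11 at 49609263 to 49652739, Nrp1 on chromosome 8 at 128358604 to 128503363 and Nrp2 on chromosome 1 at 62703285 to 62818695, all on the plus strand. No other protein-coding gene overlaps any of the 10. The deposited values are sums over the transcripts of a gene, so that the 6 well-supported coding transcripts of Vegfa, or the soluble and membrane forms of Flt1, are not separated.

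The promoters of the pair of members that rose with age (Vegfd and Flt1) and of the pair of abundant ligands that fell (Vegfa and Vegfb) are shown because the first of these stands apart in sequence. They are RefSeq sequences (GRCm38.p6) of the 250 bases before the annotated start, 5′ to 3′ on the strand of the gene, with capitals at GC boxes (GGGCGG on either strand) and TATA boxes (TATAAA on either strand). For Vegfd the GENCODE gene starts inside the window shown.
Vegfd, chrX:164373272-164373521, plus strand: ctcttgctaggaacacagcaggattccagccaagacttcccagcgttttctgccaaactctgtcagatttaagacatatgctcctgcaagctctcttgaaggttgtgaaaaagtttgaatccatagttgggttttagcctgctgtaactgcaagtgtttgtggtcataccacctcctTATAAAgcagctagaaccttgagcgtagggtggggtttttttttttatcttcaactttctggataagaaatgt
Flt1, chr5:147726012-147726261, minus strand: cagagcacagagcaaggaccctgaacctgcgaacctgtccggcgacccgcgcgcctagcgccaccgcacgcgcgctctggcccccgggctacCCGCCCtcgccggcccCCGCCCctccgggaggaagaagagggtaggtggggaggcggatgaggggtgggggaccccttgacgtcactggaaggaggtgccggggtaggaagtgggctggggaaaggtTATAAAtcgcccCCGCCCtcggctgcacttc
Vegfa, chr17:46032378-46032627, minus strand: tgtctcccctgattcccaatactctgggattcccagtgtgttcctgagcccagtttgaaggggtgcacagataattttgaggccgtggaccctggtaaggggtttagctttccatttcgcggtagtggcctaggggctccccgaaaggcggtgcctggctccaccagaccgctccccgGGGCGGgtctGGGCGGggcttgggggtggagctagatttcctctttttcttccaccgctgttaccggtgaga
Vegfb, chr19:6987652-6987901, minus strand: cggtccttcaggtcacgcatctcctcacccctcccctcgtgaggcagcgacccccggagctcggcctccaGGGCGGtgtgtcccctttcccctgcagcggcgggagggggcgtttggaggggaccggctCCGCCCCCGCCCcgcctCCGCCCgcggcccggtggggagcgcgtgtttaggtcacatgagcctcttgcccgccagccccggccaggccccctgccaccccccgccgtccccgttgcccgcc

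Over the full window of 300 bases, 250 before and 50 after the start, the Vegfd promoter had a GC content of 42.0%, against 70.7% for Flt1, 62.0% for Vegfa, 75.3% for Vegfb and a median of 52.7% over 32851 promoters. It held no GC box and the TATA letters at base -73, counted from the RefSeq start, a place that by GENCODE lies inside the gene, downstream of its start. Each of the other 9 genes had at least 1 promoter with a GC box, a motif that 35.7% of all promoters hold, and Vegfb had 4. The Flt1 promoter held 3 GC boxes and a TATA box at -31. The TATA letters stand in 13.6% of all promoters, and of the members they stood only in Vegfd and Flt1. The core of the hypoxia response element (ACGTG, both strands, in 19.6% of all promoters) stood only at a second annotated Vegfa start. The window of that start (46025114 to 46025413) lies inside the gene by GENCODE. The ERR response letters (AAGGTCA, both strands, in 4.72%) stood only in the window of Nrp1. By GENCODE, the windows of Nrp1, Flt4 and Pgf also lie wholly inside their genes, downstream of the gene starts. No matches of different motifs overlapped.

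Levels between genes were compared per transcript length, in TPM, which scales counts to transcript length and library size. At 8 months the ligands Vegfa (median 135 TPM, range 89.3 to 194) and Vegfb (113, 102 to 190) stood far above the other members, and their ranges overlapped. The receptors followed with Flt1 (21.8 TPM), Nrp1 (14.9) and Kdr (11.6), whose neighbouring ranges overlapped, although Flt1 exceeded Nrp1 in 8 of 8 mice. Vegfd (5.49 TPM), Nrp2 (5.11), Flt4 (2.47), Pgf (2.33) and Vegfc (1.76) came last, each overlapping with the next. At 28 months Vegfd had moved from the sixth to the fourth place in this order, with a median of 22.4 TPM (8.74 to 74.9) between Flt1 (33.2) and Nrp1 (15.7), and it overlapped with both. Flt1 stayed below Vegfb (85.5 TPM) and Vegfa (91.1) in all 9 mice of that age.

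Between 28 and 8 months, 5 of the 10 genes passed the quasi-likelihood test of edgeR at a false discovery rate (FDR) of 0.01, with 2 higher (Vegfd, Flt1) and 3 lower (Vegfa, Vegfb, Vegfc). Of all 12586 genes tested, 39.6% passed this comparison, 21.0% higher and 18.7% lower, so that the share among the members is not far from that of the transcriptome. A fold change here is on the log2 scale with its standard error (SE). In bulk RNA, fewer cells of a type and less RNA per cell cannot be told apart.

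**Figure D1:**
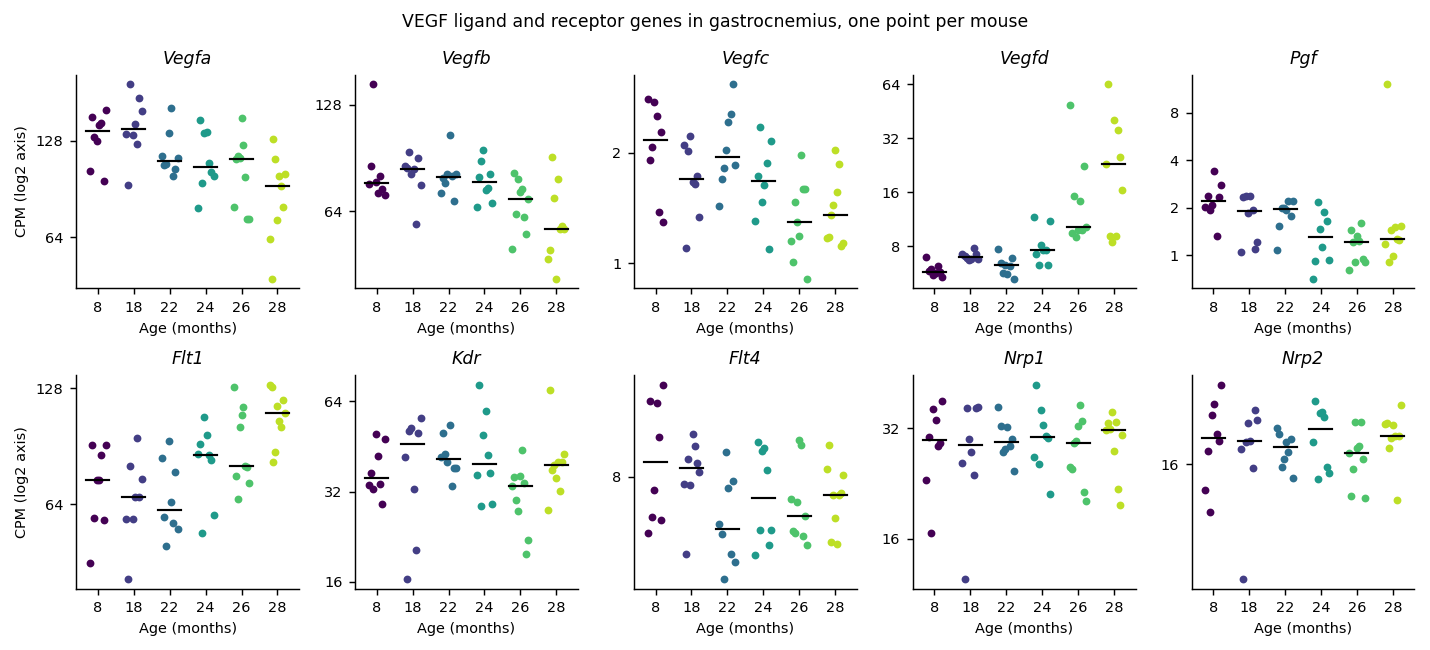
CPM, counts scaled to library size (log2 axis), of the 10 genes by age, with a point for each mouse and a bar at the median of 8 or 9 mice. Vegfd and Flt1 lie higher and Vegfa and Vegfb lower at 28 than at 8 months, and replicate 2 of 28 months stands alone in Pgf with 12.1 CPM.

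Vegfd, the gene of the lymphangiogenic ligand VEGF-D, rose most among the members. In CPM (counts scaled to library size with TMM factors), it measured 6.97, 5.78, 5.96, 5.51, 5.67, 6.18, 5.75 and 5.37 in replicates 1 to 8 of 8 months. In replicates 1 to 9 of 28 months it measured 23.0, 63.9, 9.15, 8.46, 40.5, 9.08, 35.6, 25.2 and 16.4 CPM. The 2 ages did not overlap, which was so for 4.70% of all genes and, among the members, for Vegfd alone. The mean was 5.90 ± 0.499 CPM at 8 months (SD, n = 8) and 25.7 ± 18.4 CPM at 28 months (SD, n = 9), so that the spread between mice grew along with the level. The fold change was 2.12 (SE 0.30) on the log2 scale, or 4.36-fold, with an FDR of 3.9e-07 in edgeR, and it was 2.04 (SE 0.30, edgeR FDR 1.19e-05) against 22 months. Without replicate 2 of 28 months, the highest mouse, it was 1.82 against 8 months (edgeR FDR 1.77e-06, with a range of 5.93e-08 to 1.86e-06 over the 17 fits that leave out 1 mouse).

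Most of the rise of Vegfd came late. Mice of 18 months had a median of 6.95 CPM (range 6.72 to 7.83), those of 22 months 6.24 (5.28 to 7.74), those of 24 months 7.62 (6.27 to 11.6) and those of 26 months 10.2 (8.96 to 48.8). Above the highest mouse of 8 months lay 4 of the 8 mice of 18 months, 1 of 8 of 22 months, 6 of 8 of 24 months and every mouse of 26 and of 28 months. The difference from 8 months first passed the test at 26 months (log2 fold change 1.49, SE 0.30, edgeR FDR 0.000268), when all 9 mice were higher. The step from 24 to 26 months was 1.01 (edgeR FDR 0.0799) and that from 26 to 28 months 0.63 (edgeR FDR 0.348), and neither passed, as for all other genes in these steps.

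As a share of the summed TPM of the 5 ligands, Vegfd had a median of 2.12% in mice of 8 months (1.76 to 2.998%), 5.22% in those of 26 months (3.66 to 24.1%) and 13.02% in those of 28 months (3.40 to 32.4%). The sum itself had a median of 265 TPM in the youngest mice (201 to 322) and of 210.1 TPM in the oldest (153 to 268). Vegfa held 52.7% at 8 months and 43.4% at 28 months (medians), and Vegfb 43.7% and 43.2%. Shares of Pgf and Vegfc had medians under 1% at every age.

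**Figure D2:**
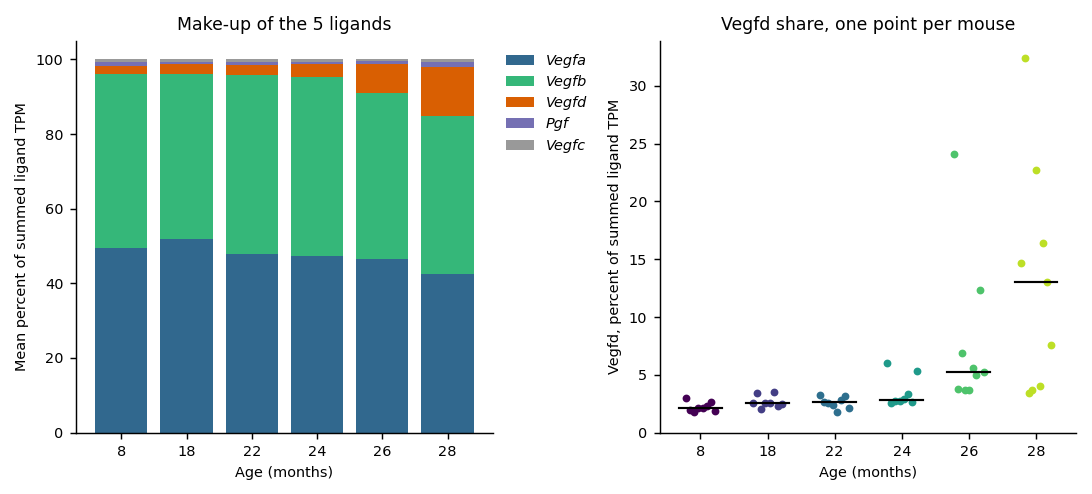
Left, mean percent of the summed TPM of the 5 ligand genes taken by each, by age, as stacked bars from 0. Right, the Vegfd percent in each mouse with a bar at the median, which goes from 2.12% at 8 months to 13.02% at 28 months while single mice of 28 months range from 3.40 to 32.4%.

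Vegfa, whose product is the main growth factor of capillaries, and Vegfb, whose product binds VEGFR1, both fell. In replicates 1 to 8 of 8 months, Vegfa measured 103, 152, 131, 128, 143, 146, 95.7 and 160.3 CPM. In replicates 1 to 9 of 28 months it measured 63.0, 47.6, 129.6, 113, 72.7, 99.5, 92.5, 79.3 and 101 CPM. The ages overlapped, with 5 of the 9 oldest mice below every mouse of 8 months, and the log2 fold change was -0.58 (SE 0.15, edgeR FDR 0.00171). The medians of the ages between were 139 CPM at 18 months, 111 at 22 months, 106 at 24 months and 113 at 26 months. Against 22 months, the log2 difference of 28 months was -0.42 (edgeR FDR 0.0273) and did not pass. On log2(TPM + 1) with limma, the fall of Vegfa from 8 months had an adjusted p of 0.0180 and was not called.

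Vegfb measured 76.6, 85.7, 146.05, 77.1, 71.7, 80.5, 73.7 and 71.0 CPM at 8 months, where replicate 3 stood far above the rest. At 28 months it measured 47.0, 49.6, 91.2, 69.5, 41.3, 78.8, 56.9, 58.0 and 57.1 CPM in replicates 1 to 9, with 7 of the 9 mice below every mouse of 8 months. The log2 fold change was -0.48 (SE 0.13, edgeR FDR 0.00156). Without replicate 3 of 8 months it was -0.33, which did not pass (edgeR FDR 0.0160, with a range of 0.000143 to 0.0160 over the 17 fits that leave out 1 mouse). Against 22 months, the log2 difference was -0.40 (edgeR FDR 0.0105) and did not pass either. Whether Vegfb and Vegfa fell to different extents could not be told from the spread, since the log2 ratio of Vegfb to Vegfa differed by 0.13 between 28 and 8 months (95% interval -0.21 to 0.48, two-sided exact permutation test, adjusted p = 0.605 over 4 ratios).

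Vegfc and Pgf were the members with the fewest counts, 15 to 51 per mouse for Vegfc and 12 to 56 for Pgf in all mice but 1. Vegfc, the other ligand of VEGFR3, had a median of 2.17 CPM in mice of 8 months (1.29 to 2.80), 1.30 in those of 26 months (0.909 to 1.97) and 1.35 in those of 28 months (1.12 to 2.03), and 4 of the 9 oldest mice were below all mice of 8 months. The log2 fold change was -0.56 (SE 0.17, edgeR FDR 0.00592), and it passed in 3 of 8 other settings and in 9 of the 17 fits without 1 mouse (FDR 0.00176 to 0.0184). Without replicate 2 of 28 months it was -0.53 (edgeR FDR 0.0131) and not called, and the members called lower were then Vegfa, Vegfb and Pgf. At 26 months it was -0.65 (SE 0.18, edgeR FDR 0.00450). Vegfc and Vegfd, which share VEGFR3, thus moved in opposite directions at both of the oldest ages.

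Pgf, whose product binds VEGFR1, gave a result that depended on 1 mouse. At 28 months, replicates 1 to 9 measured 1.17, 12.1, 0.902, 1.44, 0.982, 1.503, 1.26, 1.24 and 1.53 CPM, against 1.33 to 3.40 CPM (median 2.21) at 8 months. With all mice the log2 fold change was 0.15 (SE 0.33, edgeR FDR 0.727). Without replicate 2 of 28 months it was -0.85 (edgeR FDR 0.000583), and the FDR over the 17 fits without 1 mouse ranged from 0.000583 to 0.888. Of the other ages, the difference at 26 months was -0.98 (SE 0.36, edgeR FDR 0.0307) with 7 of 9 mice below all mice of 8 months, and in the fit without that mouse, a setting chosen after seeing the data, its FDR was 0.000198.

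**Figure D3:**
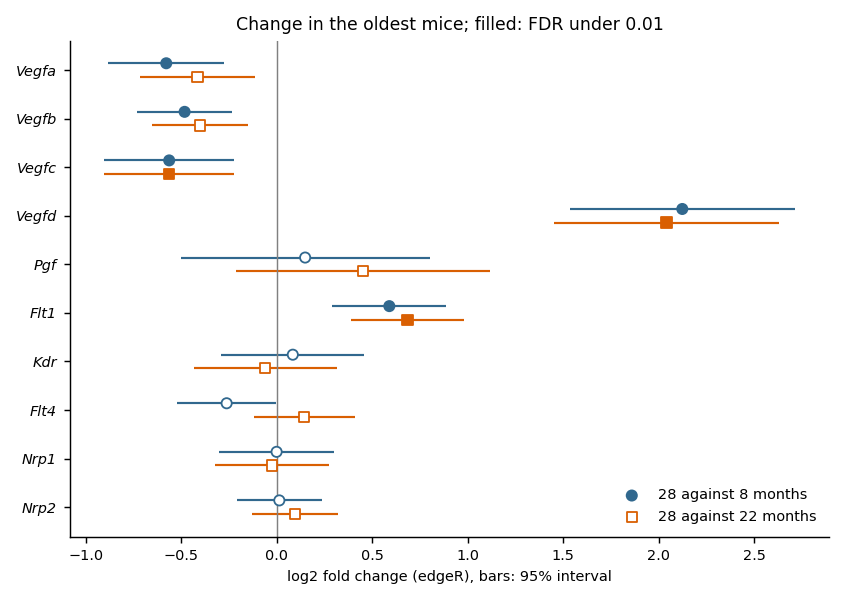
Log2 fold changes of the 10 genes in edgeR for 28 against 8 months (circles) and 28 against 22 months (squares), with 95% intervals as lines and filled symbols at an FDR under 0.01. Vegfd lies above 2 in both comparisons, and Flt1 is the receptor with filled symbols.

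Among the receptors, the Flt1 transcript rose and those of Kdr, Flt4, Nrp1 and Nrp2 did not pass the test. Flt1 measured 45.3, 91.4, 59.0, 74.1, 73.8, 85.9, 58.4 and 91.3 CPM in replicates 1 to 8 of 8 months. It measured 131, 129, 82.6, 87.7, 115, 105, 101, 119 and 110.2 CPM in replicates 1 to 9 of 28 months. All but 2 of the oldest mice lay above every mouse of 8 months, and the 2 others were replicates 3 and 4. The log2 fold change was 0.59 (SE 0.15, or 1.505-fold, edgeR FDR 0.00117), and 0.68 (SE 0.15, edgeR FDR 0.000475) against 22 months. Medians at 18, 22, 24 and 26 months were 66.8, 62.1, 86.1 and 80.4 CPM, and the difference from 8 months did not pass at 26 months (0.35, edgeR FDR 0.0698).

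Kdr had a median of 35.5 CPM at 8 months (29.2 to 49.9) and 39.2 CPM at 28 months (27.7 to 69.5). Its log2 fold change was 0.08 with a 95% interval from -0.29 to 0.46 (edgeR FDR 0.731), and it was -0.05 without replicate 2 of 28 months, the highest mouse of its age. Flt4 had medians of 8.52 and 7.39 CPM and a log2 fold change of -0.26 (approximate 95% interval -0.52 to -0.00241). In edgeR its unadjusted p was 0.0535 and its FDR 0.0910, so that it did not pass even before adjustment at 0.05. The largest difference of Flt4 from 8 months was -0.41 at 22 months (edgeR FDR 0.262). Nrp1 (29.7 and 31.6 CPM) and Nrp2 (18.3 and 18.4 CPM) had log2 fold changes of 0.00 and 0.01, with 95% intervals of -0.30 to 0.30 and -0.21 to 0.24.

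The balance of the receptors differed between the ages. Within each mouse, the ratio of Flt1 to Kdr in CPM had a median of 1.86 in mice of 8 months (1.35 to 2.53) and of 2.61 in mice of 28 months (1.85 to 4.73). The difference in the log2 ratio was 0.55 (SE 0.17, higher than all mice of 8 months in 6 of 9), with p = 0.00592 in a two-sided exact permutation test and an adjusted p of 0.0118 over 4 ratios. Against 22 months it was 0.79 (exact permutation test, adjusted p = 0.00395). Of the summed TPM of the 3 kinases, Flt1 took a median of 58.1% at 8 months and 68.0% at 28 months, Kdr 34.4% and 28.3%, and Flt4 7.07% and 4.52%. The ratio of Vegfa to Kdr, of the ligand to its main signalling receptor, fell by 0.68 on the log2 scale (SE 0.24, exact permutation test, adjusted p = 0.00790), with 6 of 9 mice below all mice of 8 months. Without replicate 2 of 28 months it fell by 0.47 (exact permutation test, adjusted p = 0.00746). Between 28 and 22 months, with all mice, the difference of -0.37 was within the spread (exact permutation test, adjusted p = 0.208). That difference includes replicate 2 of 28 months, whose log2 ratio was -0.55 where the next mouse had 0.99. The ratio of Nrp1 to Kdr differed by -0.05 (95% interval -0.37 to 0.28, exact permutation test, adjusted p = 0.798).

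Endothelial markers were measured beside these receptors. Of 14 endothelial marker genes tested, 1 rose (Rgcc, 0.68, edgeR FDR 0.00618) and none fell, with a median log2 fold change of 0.03. At an unadjusted p under 0.05, 3 were higher, Rgcc with Vwf (0.40, edgeR FDR 0.0363) and Sox17 (0.34, edgeR FDR 0.0416), and 1 was lower. Pecam1, an adhesion molecule of endothelium, had a log2 fold change of 0.17 (edgeR FDR 0.157) and Cdh5, the cadherin of endothelial junctions, one of -0.22 (edgeR FDR 0.105). The summed CPM of the list had a median of 448 at 8 months (363 to 481) and 459 at 28 months (405 to 587), and Rgcc was its most abundant gene per length (by median TPM) at every age. Relative to the mean of these markers in the same mouse, Flt1 was higher at 28 months by 0.55 on the log2 scale (SE 0.11, exact permutation test, adjusted p = 0.00165 over 5 receptors), above all mice of 8 months in 8 of 9, and by 0.57 against 22 months (exact permutation test, adjusted p = 0.000823). Kdr (0.00), Nrp1 (-0.04) and Nrp2 (-0.03) gave adjusted p-values of 0.991 in exact permutation tests, and Flt4 (-0.29) gave 0.0611.

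**Figure D4:**
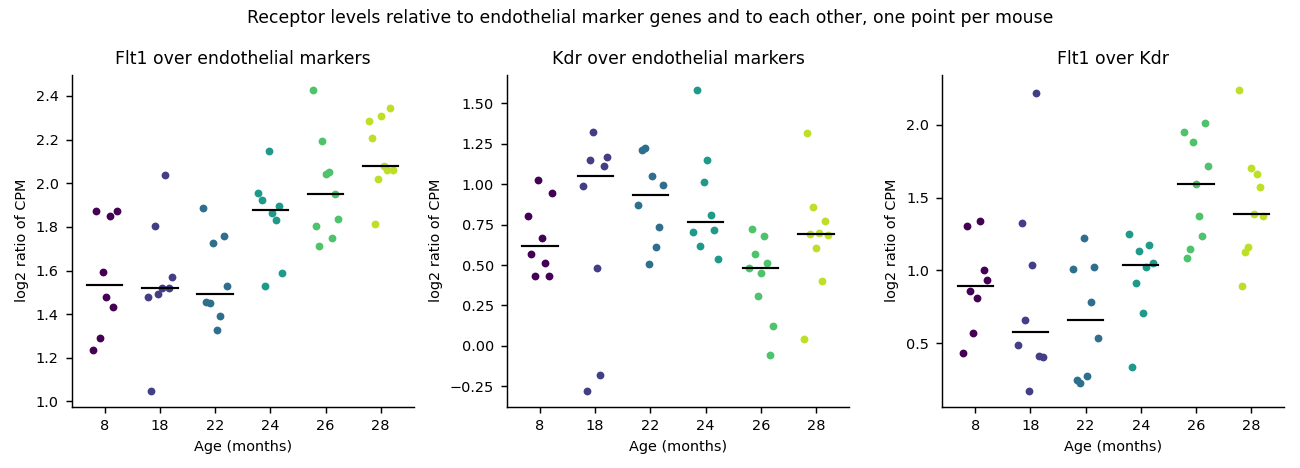
Log2 ratios of CPM within each mouse by age, for Flt1 and Kdr over the mean of the endothelial markers and for Flt1 over Kdr, with a bar at the median. Flt1 over the markers lies above all mice of 8 months in 8 of the 9 mice of 28 months, whereas the mice of both ages overlap for Kdr.

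Each age was also compared with 8 months. None of the 10 genes passed at 18, 22 or 24 months against 8 months in edgeR, where 0, 1 and 1 had an unadjusted p under 0.05, and none passed in any of the 9 other settings, DESeq2 and limma among them. Of all genes, 0.0715%, 0.0397% and 0.612% passed at these ages, so few calls were made anywhere. At 26 months 2 of 10 passed (Vegfd higher, Vegfc lower), against 18.4% of all genes, and between 28 and 22 months 3 of 10 (Vegfd and Flt1 higher, Vegfc lower), against 27.7%. These shares are close to those of all genes. Without replicate 2 of 28 months the 2 genes that rose against 22 months still passed, and Vegfc (-0.53, edgeR FDR 0.0182) did not. Of the 5 steps between consecutive ages, none gave a called member in edgeR, with 0, 1, 0, 2 and 2 members at an unadjusted p under 0.05, and of all genes 0.0715%, 0.00795%, 0.00%, 0.00% and 0.00% were called, so that these steps single out no member. The test for any difference over the 6 ages called 5 of 10, against 35.4% of all genes, with the lowest FDR for Vegfd (2.06e-08).

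Mice of one age also differed from each other. After the mean of each age was subtracted, 6 pairs of members were compared over 50 mice, with 100000 permutations within ages. With all mice included, Nrp1 and Kdr, which share a complex at the endothelial surface, went together most (Pearson r = 0.735, Spearman rho = 0.731, both with p = 1e-05, the smallest these permutations can give, and adjusted p = 6e-05). Vegfa went with Vegfb (r = 0.527, rho = 0.552, permutation test, p = 0.00041, adjusted p = 0.00123 for r) and with Kdr (r = 0.474, rho = 0.564, permutation test, p = 0.00097, adjusted p = 0.00194 for r). Without the 2 mice farthest from the median of the first gene, these r were 0.688, 0.466 and 0.708, and Vegfa with Kdr came first. Without replicate 2 of 28 months they were 0.747, 0.514 and 0.689. Flt1 and Kdr had r = 0.381 and rho = 0.350 (permutation test, p = 0.0108, adjusted p = 0.0162 for r), and without the 2 farthest mice r was 0.265 (permutation test, adjusted p = 0.127), so that it passed only with those mice included. On log2(TPM + 0.1) and with all mice, r of Flt1 with Kdr was 0.565 and rho 0.498 (permutation test, adjusted p = 0.00018 for r). Vegfc with its receptor Flt4 (r = -0.01, rho = -0.02, permutation test, adjusted p = 0.990 for r) and Pgf with Flt1 (r = -0.00175, rho = -0.0526, permutation test, adjusted p = 0.990 for r) gave no relation that passed the test, with few counts behind Vegfc and Pgf.

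The genes most like each member across mice are given as a description, by Pearson r of log2(CPM + 0.5) within ages over 50 mice and among genes with a mean of at least 5 CPM. These points share libraries and scaling factors. Vegfd was most like Ctsl (r = 0.923), a lysosomal protease, Nploc4 (0.919), a cofactor in the degradation of ubiquitinated proteins, and Tfdp2 (0.913), a partner of E2F factors. All 3 also passed between 28 and 8 months in edgeR, with log2 fold changes of 1.30 (FDR 9.21e-06), 0.91 (FDR 1.92e-06) and 1.78 (FDR 2.67e-07). Vegfa was most like Perm1 (0.887), a muscle regulator of oxidative genes, P2ry1 (0.831) and Fam129a (0.796). Vegfb was most like Mdh2 (0.911), Ndufa10 (0.894) and Sdhc (0.887), which encode an enzyme of the citric acid cycle and subunits of respiratory complexes I and II.

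Flt1 was most like Wasf2 (0.873), Plxna2 (0.841) and Epas1 (0.837), the last of which encodes the hypoxia-inducible factor HIF-2α. Kdr was most like Ets1 (0.833), an endothelial transcription factor, Smurf1 (0.761) and Lpgat1 (0.760). Flt4 was most like Sash1 (0.797), Sptan1 (0.777) and Shank3 (0.777). Nrp1 and Nrp2 were among each other's most similar genes (0.844), together with Itga1 (0.866 and 0.813), which encodes a collagen-binding integrin, Adgrl2 (0.817, with Nrp1) and Arhgap31 (0.817, with Nrp2). For the low genes the likeness was weaker, with Rnf139 (0.587), Ndfip1 (0.533) and Il10rb (0.503) for Vegfc. For Pgf, the r with Eif1a was 0.688 with all mice and 0.167 without replicate 2 of 28 months, that with Klhl2 was 0.679 and 0.555, and that with Srgn 0.665 and 0.315.

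Lists of genes around the pathway were counted in the same fit for 28 against 8 months. Of 13 regulators linked to hypoxia and PGC-1, 4 rose and 2 fell (median log2 fold change 0.08). Egln3, a prolyl hydroxylase that marks hypoxia-inducible factors for degradation, went from a median of 45.0 to 225 CPM (log2 fold change 2.05, edgeR FDR 6.07e-07), and Hif3a from 1.05 to 4.34 CPM (1.21, edgeR FDR 0.00349). Arnt (0.92) and Hif1a (0.42) rose as well, whereas Esrra, the gene of ERRα, fell by 0.71 and Egln1 by 0.35 on the log2 scale; Ppargc1a, the gene of PGC-1α, gave 0.77 (edgeR FDR 0.0523). Of 31 signalling genes below the receptors, 7 rose and 2 fell (median 0.05). Those that rose included Pik3r1, a regulatory subunit of PI3-kinase (1.86, edgeR FDR 5.94e-06), the kinase gene Akt1 (0.74, edgeR FDR 2.44e-05) and Prkcb, a protein kinase C gene of low level (0.87, edgeR FDR 0.00788, mean 0.897 CPM). These genes also act below receptors other than those of VEGF.

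Of 15 tested genes of a list written for VEGF response and endothelial Notch signalling, none rose in edgeR or DESeq2. At an unadjusted p under 0.05, 4 were higher. The 2 that fell were Hes1 (-0.77, edgeR FDR 0.00172), a Notch target, and Pgk1 (-0.40, edgeR FDR 0.000350). Pgk1 encodes a glycolytic enzyme that muscle fibres express highly and is particular to neither group. Of 5 genes of the angiopoietin pathway, which stabilises vessels, 2 fell: Angpt1, the activating ligand (-0.56, edgeR FDR 0.00182), and Tek, its receptor (-0.40, edgeR FDR 0.00160). Of 12 semaphorin and plexin genes, the partners of the neuropilins, 1 rose (Plxna2, 0.86, edgeR FDR 0.000272) and 3 fell, among them Sema3a (-0.76, edgeR FDR 0.00287). The medians were -0.05, -0.29 and -0.21, beside 0.01 over all genes tested.

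**Figure D5:**
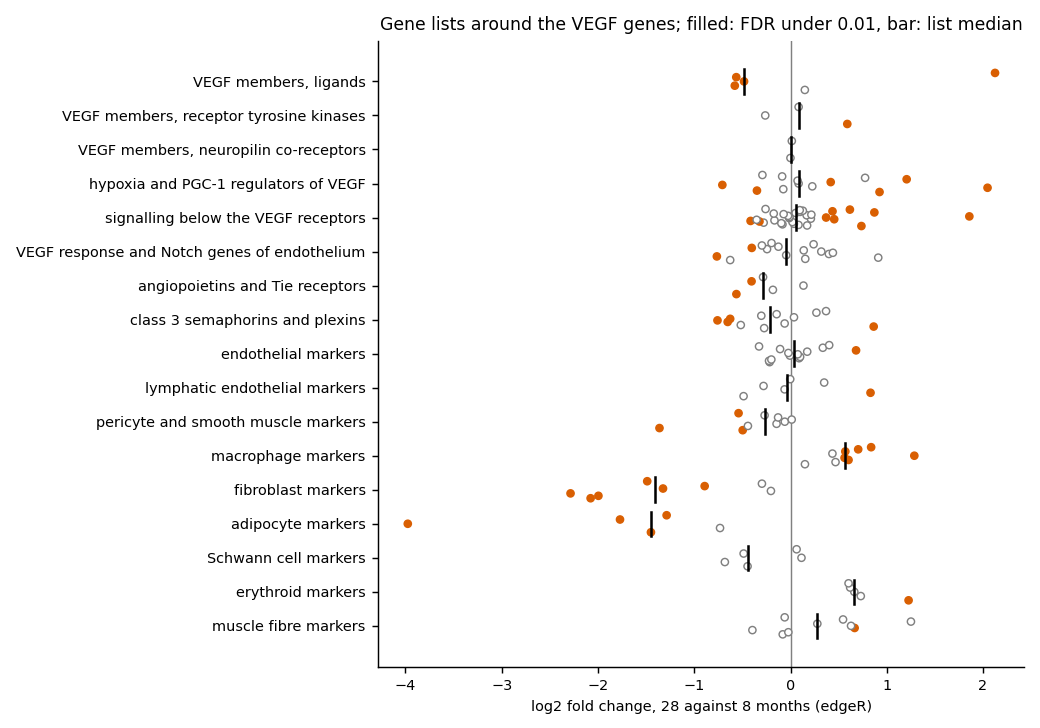
Log2 fold changes of single genes for 28 against 8 months in edgeR, by list, with filled points at an FDR under 0.01 and a bar at the median of each list. The fibroblast and adipocyte lists lie to the left with medians of -1.41 and -1.45, and the endothelial list lies around 0.03.

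Markers of the other cells of the muscle moved with age to different extents, and their part in the changes of the VEGF genes was not tested. Of 9 macrophage markers 6 rose and none fell (median 0.57), led by Cd163 (1.29, edgeR FDR 9.75e-06) and Mrc1 (0.84, edgeR FDR 0.000161), and their summed level went from a median of 239 CPM at 8 months (176 to 315) to 386 CPM at 28 months (265 to 651), with Lyz2 the most abundant by median TPM at both ages. Of 8 fibroblast markers 6 fell (median -1.41), with Col3a1 at -2.28 (edgeR FDR 1.32e-07) and Col1a1 at -2.08 (edgeR FDR 3.12e-06), and the sum went from 1424 CPM (1205 to 1732) to 799.5 CPM (713 to 1063), with Dcn the most abundant by median TPM at both ages. Of 5 adipocyte markers 4 fell (median -1.45), with Lep, the gene of leptin, at -3.98 (edgeR FDR 3.24e-06) and Plin1 at -1.77 (edgeR FDR 3.6e-05). Of 6 lymphatic endothelial markers, which bear on Flt4 and on the ligands of its receptor, 1 rose, Lyve1 (0.83, edgeR FDR 0.000463), which some macrophages also express, with a median of -0.03 over the list. Prox1, the defining transcription factor, gave 0.35 (edgeR FDR 0.285), Ccl21a -0.49 (edgeR FDR 0.0547), Pdpn -0.28, Mmrn1 -0.06 and Reln 0.00, and none of these 5 passed.

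Of 9 pericyte and smooth muscle markers 3 fell, led by Cnn1 (-1.36, edgeR FDR 0.000155) and Tagln (-0.54, edgeR FDR 0.00896), with a median of -0.27. None of 5 Schwann cell markers passed in edgeR (median -0.45), where 2 had an unadjusted p under 0.05 and a lower level, and DESeq2 called 1 lower. Of 5 erythroid markers 1 rose, Alas2 (1.23, edgeR FDR 0.00417), with a median of 0.66. The 9 muscle fibre markers, which define the tissue, summed to a median of 138110 CPM at 8 months and 151530 CPM at 28 months with Tnnt3 the most abundant by median TPM at both ages, and 1 rose, Myh1 (0.67, edgeR FDR 0.00777). No marker of the cell type lists that were summed had a median count of 0 at any age.

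Within 1 diet regime, between 28 and 22 months, the share of all genes called was 27.7%, against 39.6% between 28 and 8 months. Several lists also had fewer calls. These ages also lie closer together than 8 and 28 months. Of the macrophage markers 1 of 9 rose, Cd163 (1.08, edgeR FDR 0.000206), while Mrc1 gave 0.51 (edgeR FDR 0.0196), and the median was 0.24. Of the fibroblast markers 5 of 8 fell, among them Col3a1 (-1.61, edgeR FDR 7.01e-05) and Col1a1 (-1.47, edgeR FDR 0.000544), and of the adipocyte markers 2 of 5 fell, Lep (-3.28, edgeR FDR 0.000169) and Plin1 (-1.12, edgeR FDR 0.00784). None of the endothelial, pericyte and smooth muscle, Schwann cell or erythroid markers passed in edgeR, and DESeq2 called 0, 1, 0 and 0. At an unadjusted p under 0.05, 4 of 14 endothelial markers (list median 0.16) and 5 of 5 erythroid markers (list median 0.77) were higher and 2 of 9 pericyte and smooth muscle markers (list median -0.14) were lower, and none of the Schwann cell markers was at that p. Lyve1 and Myh1 were again the genes called in the lymphatic and muscle fibre lists, both higher.

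Among the pathway lists, 4 of 13 regulators rose and 2 fell, and 6 of 31 signalling genes rose and 2 fell. Ppargc1a was among the regulators that rose here (1.17, edgeR FDR 0.00597), and Hif1a did not pass (0.38, edgeR FDR 0.0101). Ppargc1a had a median of 87.3 CPM at 28 months (49.8 to 408), and no value without its highest mouse is given. Of the VEGF response and Notch genes 2 of 15 rose, Notch1 (0.53, edgeR FDR 0.00533) and Jag1 (0.56, edgeR FDR 0.00562), and 1 fell, Hes1. The 28-month mice had a median of 12.9 CPM for Jag1 (8.77 to 31.9), and no value without the highest of them is given. Of the angiopoietin genes Tek fell (-0.35, edgeR FDR 0.00790) and Ptprb, a phosphatase that acts on its product, rose (0.49, edgeR FDR 0.00703), while Angpt1 did not pass (-0.48, edgeR FDR 0.0105). Of the semaphorin and plexin genes 2 of 12 rose and 1 fell.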

How the data were processed

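Gastrocnemius mRNA of 50 mice was sequenced. Per the labels and the Methods, the authors trimmed reads with Cutadapt 1.9.1 and assigned them with kallisto 0.43.1, by strand, to protein-coding transcripts on GRCm38. The authors deposited counts per gene, summed over transcripts and not normalized, and TPM values, scaled by transcript length and library size. From the counts, CPM with TMM factors and a quasi-likelihood test were computed in edgeR 4.0.16 (R 4.3.3), with the 6 ages in 1 fit. Genes needed 1 CPM or more in 8 or more mice, which 12586 did, and p-values over them were adjusted by Benjamini-Hochberg (threshold 0.01). For ratios, exact permutation tests (two-sided, threshold 0.05) were used (scipy 1.17.1). DESeq2 1.42.0, the likelihood ratio test, limma 3.58.1 on log2(TPM + 1) and log2(TPM + 0.1), upper-quartile factors, no filter, the 2 ages alone, a replicate block and leaving out each mouse were alternatives. Depth was 13607229 to 21267375 counts per mouse, and no pair of libraries within an age was as alike as counting noise allows (chi-square per degree of freedom at least 6.44). Groups were taken from the age in the sample labels.

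The members and lists were chosen with earlier results of these data known, and the lists were written from general knowledge. Named genes were all members, the 2 genes of each list with the largest change among those past the threshold with a mean of at least 1 CPM (with Pecam1 and Cdh5), and the 3 genes most like each member. Arnt, Hif1a, Esrra, Egln1, Ppargc1a, Prkcb, Vwf, Sox17, Prox1, Ccl21a, Pdpn, Mmrn1, Reln, Notch1, Jag1 and Ptprb were named after their values were seen. Cldn5, Sh2d2a, Aplnr, Egr3 and Angpt4 were not tested. The procedures were tested on simulated data. Positions came from GENCODE vM21, which is not the release the authors used, and promoters from RefSeq.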

Additional observations from a re-analysis of the deposited data

Results flagged for a closer look

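In each age group of 8 or 9 mice, the highest and lowest value of each member and ratio was compared with its nearest neighbour. Of 114 such groups, 13 held a mouse whose gap exceeded Dixon's 95% critical value. Chance flags about 1 in 20 where groups are independent and normally distributed. These groups share mice and members, and the members were taken as untransformed CPM. No excess over chance can be read from the count. Replicate 2 of 28 months stood apart in Pgf (12.1 CPM, the next mouse 1.53), in Kdr (69.5 CPM, the next 42.5) and in the log2 ratio of Vegfa to Kdr (-0.55, the next 0.99). Replicate 2 of 18 months stood low in Nrp2 (9.06 CPM, the next 15.7), in Nrp1 over the endothelial markers (-0.68) and Nrp2 over them (-1.14, both log2), and high in the log2 ratio of Vegfb to Vegfa (-0.14, the next -0.64). Replicate 3 of 8 months stood high in Vegfb (146.05 CPM, the next 85.7) and low in Nrp1 over the endothelial markers (-0.55). Vegfd was set apart in replicate 1 of 26 months (48.8 CPM, the next 22.2) and in replicate 6 of 18 months (7.83 CPM, the next 7.22). Vegfb was high in replicate 5 of 22 months (105.03 CPM, the next 81.7), and Nrp2 over the endothelial markers was low in replicate 7 of 28 months (-0.86, the next -0.51).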

How the results depend on the processing

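Vegfd and Flt1 were called higher at 28 than at 8 months in all 8 other settings and in all 17 fits without 1 mouse, with log2 fold changes of 1.74 to 2.24 and 0.51 to 0.71. Against 3 in the main fit, the number of members called lower was 1 in the fit on the 2 ages alone. It was also 1 with limma on log2(TPM + 1) and log2(TPM + 0.1). With no filter and with the replicate block it was 2, and in the 17 fits without 1 mouse it was 2 or 3. Vegfa gave -0.51 with both limma settings. Vegfb gave -0.48 in the 2 ages alone (adjusted p = 0.0240 in edgeR), and -0.57 to -0.33 when each mouse was left out. Vegfc gave -0.56 with no filter, -0.57 in the 2 ages alone, -0.34 and -0.54 with limma at pseudocounts of 1 and 0.1, and -0.64 to -0.50 when each mouse was left out. Pgf ranged from -0.85, without replicate 2 of 28 months, to 0.26. Of members called lower against 22 months, there were 2 with upper-quartile factors, the likelihood ratio test and DESeq2, and 0 with no filter, in the 2 ages alone and, in a setting added after seeing the data, without replicate 2 of 28 months, against 1; without that mouse 2 were called lower at 26 months (Vegfc and Pgf). The log2 ratio of Vegfa to Kdr differed by -0.37 between 28 and 22 months, that of Flt4 to the endothelial markers by -0.35 to -0.23 when each mouse was left out (passing 0.05 without replicate 3, 4 or 7 of 8 months), and r of Flt1 with Kdr was 0.26 without the 2 farthest mice. The cause of these changes was not tested. Over all genes, 2249 rose and 2760 fell with upper-quartile factors and 2802 and 1758 with limma on log2(TPM + 1), against 2639 and 2349.

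With the replicate number as a block, Vegfc gave -0.52 (edgeR FDR 0.0104) and was not called, and no other member changed its call. Same-numbered mice of different ages had a median r of 0.0513 over 121 pairs, against -0.0059 over the 920 other pairs, and 8 mice went best with their own number, so the numbers were not taken to pair mice. Of the counts of called genes in the lists, 633 stayed within 1.5 times the count reported and 67 did not. Counts of 12 to 56 per mouse limit Vegfc and, apart from 1 mouse, Pgf.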

Other observations

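Among the mice of 28 months, the 3 with the lowest Vegfd, replicates 3, 4 and 6 with 9.15, 8.46 and 9.08 CPM, had the 3 highest Vegfb values (91.2, 69.5 and 78.8 CPM) and 3 of the 4 highest Vegfa values (129.6, 113 and 99.5 CPM). Replicates 3 and 4 also had the 2 lowest Flt1 values (82.6 and 87.7 CPM), while replicate 6 (105 CPM) lay among the others. These mice were picked out after their values were seen, and the pattern was not tested. Replicate 2 of 28 months had the highest Vegfd (63.9 CPM) and the lowest Vegfa (47.6 CPM) of all 50 mice.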
